A study of Mus musculus with 2 samples.

Results

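The Hist1 histone gene cluster of mouse chromosome 13 was examined for acetylation of histone H3 at lysine K56 (H3K56ac) in embryonic stem cells. Its members were the H3K56ac intervals that overlapped, by at least 1 bp, either of 2 blocks of chromosome 13 in build mm9, from 21.7 to 22.2 Mb (first block, 500 kb) and from 23.5 to 23.9 Mb (second block, 400 kb). They numbered 95 of the 92549 intervals of the list, 33 in the first block and 62 in the second, and 0 of them crossed a block limit. The list came from 1 chromatin immunoprecipitation library of the mouse embryonic stem cell line E14Tg2a, grown in serum and leukaemia inhibitory factor. An input DNA library of the same line is named in the labels and was not analysed here. Each interval is a chromosome, a start and an end on a grid of 50 bp steps, with no read count, height or score. Depth is therefore unknown, intervals cannot be ranked by strength, and without a replicate no difference was tested. The labelled cell type could not be checked against marker genes, since the list holds no expression values.

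Replication-dependent histone genes supply the H1, H2A, H2B, H3 and H4 proteins that package newly copied DNA. They lack introns, are transcribed mainly in S phase, and end in a stem-loop instead of a poly(A) tail. Most of those of the mouse lie in the Hist1 cluster, whose promoters are handled together in a nuclear body that forms at these genes. Lysine K56 lies in the globular part of H3, near the point where DNA enters and leaves the nucleosome. Embryonic stem cells divide rapidly and spend much of their cycle in S phase, when these genes are mainly transcribed. Their transcription was not measured here.

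The RefSeq gene table (assembly GRCm38.p6) lists 54 Hist1 genes in 2 runs on chromosome 13, of which 52 are protein coding. The first run, from H2bc13 to H2bc11, has 24 genes, namely 1 for H1, 8 for H2A, 8 for H2B, 2 for H3 and 5 for H4. The second, from H4c8 to H1f1, has 30 genes, namely 5 for H1, 6 for H2A, 6 for H2B, 7 for H3 and 6 for H4. The first run also holds 31 tRNA genes and 3 other protein-coding genes, Zfp184, Pom121l2 and Prss16, whereas the second holds 0 tRNA genes and, as its only other protein-coding gene, Hfe, a regulator of iron uptake. Between the runs lie 147 genes, among them 75 of the Vmn1r family of pheromone receptors of the vomeronasal organ, 36 of which are protein coding, and 46 tRNA genes. The testis histone genes H2bc1 and H2ac1 follow after the Slc17 transporter genes and were not counted. GRCm38.p6 is another build than that of the intervals, so it served for names and gene order only, and no interval was tied to a gene. The gene counts cover the runs and not the blocks, which may hold other genes.

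Sequence of the intervals themselves was not analysed here, and the sequences shown are those of histone promoters, chosen to show an element that some H2B genes of both runs share. RefSeq promoter sequences (GRCm38.p6) matched 49 of the 54 genes with 50 promoters, and the 250 bases before the start were searched on both strands. The octamer ATTTGCAT, read as ATGCAAAT on the other strand, is bound by POU-domain factors and is a classic element of H2B promoters. It was present in 5 of 14 H2B and 4 of 12 H2A promoters and in 0 of 6 H1, 0 of 7 H3 and 0 of 11 H4 promoters, against 1.60% of all 32851 promoters of the table. Neighbouring H2A and H2B genes often face away from each other across a shared promoter, so that their windows overlap. The same octamer can then be counted for both families. H2bc6 enters the 14 H2B promoters more than once. The 5 H2B promoters with the octamer are shown by the 100 bases before the start, with the octamer in capitals:
H2bc14 (first run, chr13:21721944-21722043, plus strand): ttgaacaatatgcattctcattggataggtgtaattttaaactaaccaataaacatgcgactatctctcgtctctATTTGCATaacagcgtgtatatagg
H2bc12 (first run, chr13:22035721-22035820, plus strand): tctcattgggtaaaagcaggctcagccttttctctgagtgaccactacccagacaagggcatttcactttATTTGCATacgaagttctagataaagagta
H2bc8 (second run, chr13:23571300-23571399, plus strand): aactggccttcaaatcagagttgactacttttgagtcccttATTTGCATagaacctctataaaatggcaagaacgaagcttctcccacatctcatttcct
H2bc6 (second run, chr13:23585971-23586070, minus strand): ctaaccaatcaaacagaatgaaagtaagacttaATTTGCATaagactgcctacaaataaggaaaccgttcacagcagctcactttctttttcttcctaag
H2bc3 (second run, chr13:23746634-23746733, plus strand): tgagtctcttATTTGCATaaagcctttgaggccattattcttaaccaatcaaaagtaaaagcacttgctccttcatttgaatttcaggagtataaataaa
These 5 positions are in GRCm38.p6 and cannot be set against the mm9 positions given for intervals. The octamer ended 17 bases before the start in H2bc14, 22 in H2bc12, 51 in H2bc8, 59 in H2bc6 and 82 in H2bc3.

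Other promoter elements, searched on both strands in the same windows, were more frequent than among all promoters, in some families or in all. CCAAT, the binding element of the factor NF-Y, was found in every one of the 6 H1, 12 H2A, 14 H2B and 7 H3 promoters, but in 3 of 11 H4 promoters, against 33.8% of all promoters. The H1 box AAACACA was found in 5 of 6 H1 promoters and in 2 of the other 44, 1 for H2A and 1 for H2B, against 6.25% of all promoters. TATAAA, the core of the TATA box, was found in 24 of 50 Hist1 promoters and in every family, from 4 of 12 for H2A to 4 of 6 for H1, against 12.4% of all promoters. These 4 searches describe letters in a window and do not show which factors bind there.

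H3K56ac intervals were denser in the Hist1 blocks than in the stretch between them, in the flanks and over the rest of chromosome 13. Both blocks together held 5.28 intervals per 50 kb (exact Poisson 95% interval 4.27 to 6.45). The stretch between them, where 16 intervals lay in 1.3 Mb, held 0.615 per 50 kb (0.352 to 0.999). The 1 Mb before the first block held 24 intervals (1.20 per 50 kb) and the 1 Mb after the second held 26 (1.30 per 50 kb), close to the 1.25 per 50 kb of the rest of the chromosome between its first and last interval. The blocks thus exceeded the stretch between them 8.58-fold (exact 95% interval 5.02 to 15.6), the outer flanks 4.22-fold (2.97 to 6.07) and the rest of the chromosome 4.22-fold (3.40 to 5.18). These intervals cover counting error only and treat neighbouring intervals as independent, which they are not. When each group of intervals less than 12.5 kb apart was counted once, the excess was 3.03-fold over the stretch between (1.37 to 7.21), 2.33-fold over the flanks (1.20 to 4.54) and 2.76-fold over the rest (1.70 to 4.25). Without the largest cluster of the second block it was 5.61-fold, 2.76-fold and 2.76-fold, and with only intervals wider than 100 bp it was 23.1-fold over the stretch between, which then held 2 intervals.

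**Figure D1:**
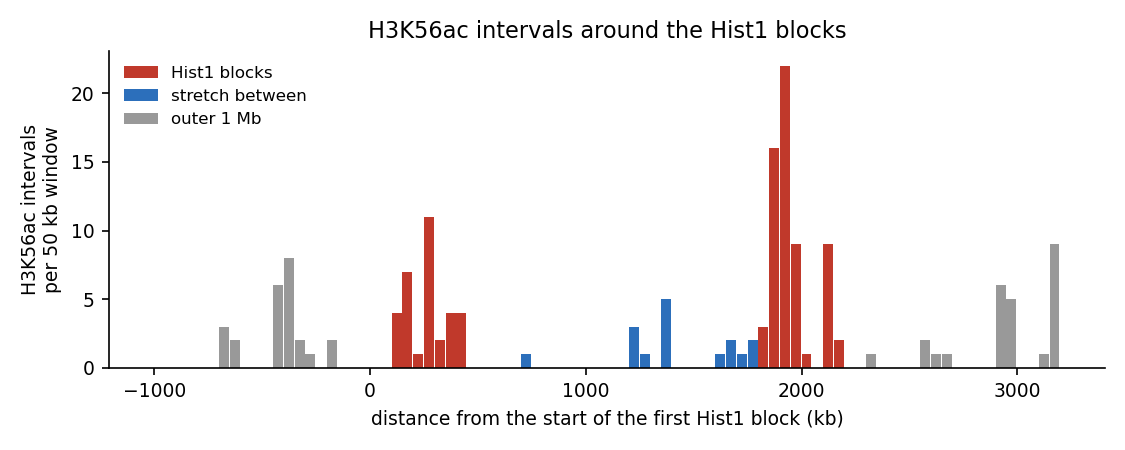
Number of H3K56ac intervals (vertical axis) in successive 50 kb windows against distance in kb from the start of the first block (horizontal axis), for the Hist1 blocks, the stretch between them and 1 Mb on either outer side. The highest bar, 22 intervals, is in the second block, the first block reaches 11, and the stretch between reaches 5.

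In covered bases the contrast was larger over the stretch between and smaller over the rest of the chromosome. Over the outer flanks it was 4.43-fold, close to that in counts. Interval sequence took up 12150 bp in the blocks, or 675 bp per 50 kb, against 50.0 bp per 50 kb in the stretch between, 152.5 in the outer flanks and 207 in the rest of the chromosome. The blocks therefore exceeded the stretch between 13.5-fold in bases, but the rest of chromosome 13 only 3.26-fold. Even in the second block, the denser of the 2, intervals covered 2.09% of the sequence, and in the first block 0.760%.

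Read window by window, most windows of the blocks held an H3K56ac interval, but the intervals were unevenly spread. A higher density by itself fills more windows. Of their 18 windows of 50 kb, 14 held the midpoint of at least 1 interval, where 36% of all 2337 windows of chromosome 13 did. In the first block 7 of 10 windows were filled and in the second 7 of 8, against 8 of 26 in the stretch between and 15 of 40 in the outer flanks. At least 10 intervals were present in 3 of the 18 windows, where 2.23% of the windows of the chromosome reached that number. The spread between windows was wide: the first block averaged 3.30 ± 3.56 intervals per window (SD, 10 windows) and the second 7.75 ± 7.89 (SD, 8 windows). Windows of 1 library are not replicates, and the SD describes unevenness along the sequence.

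The second block held more intervals per 50 kb, and most of its members lay in 1 stretch. Its density of 7.75 intervals per 50 kb (5.94 to 9.94) was 2.35-fold that of the first block, 3.30 (2.27 to 4.63), with an exact 95% interval of the ratio of 1.52 to 3.70. A cluster of 38 intervals from 23582251 to 23656750, joined at gaps under 12.5 kb, held 61.3% of the members of the block in 18.6% of its length. Inside it the density was 25.5 intervals per 50 kb, and outside it 24 intervals remained at 3.69 per 50 kb. Without that cluster the second block exceeded the first 1.12-fold (0.632 to 1.95). With each cluster counted once the direction turned, to 0.938 times the first block (0.349 to 2.42). Among the 1000 clusters of chromosome 13 it ranked 4 by number of intervals but 15 by covered bases, with 4850 bp.

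The other members of the second block formed 8 smaller groups. A cluster of 10 intervals with 1600 bp lay from 23829951 to 23855050, and 1 of 6 intervals with 1050 bp from 23674151 to 23688350. A group of 3 lay from 23551151 to 23557300, and 4 intervals stood alone. The first member, at 23504251, joined 1 interval just before the block limit. The longest empty stretch of the block, 117 kb from 23712851 to 23829950, set the cluster of 10 and the last single interval apart from all the other members. Of the 8 windows of the block, the fullest held 22 intervals and the next 16. On the whole chromosome 11 of 2337 windows held 22 or more, and over the 19 autosomes 466 of 48181 did (0.967%).

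Intervals of the first block were more scattered. They formed 12 clusters, none of which had more than 7 intervals, and 4 of these were single intervals. The cluster with the most interval bases, 950 bp in 7 intervals, lay from 21954301 to 21959950 and covered 16.8% of its span of 5.65 kb. A cluster of 6 intervals with 700 bp lay from 21871501 to 21884150. The first 102 kb and the last 71.3 kb of the block held no interval, and the longest empty stretch inside was 36.6 kb, from 21884151 to 21920750. Measured from its first to its last interval, each block is denser by construction, since only empty ends are cut. The second block then exceeded the first 1.67-fold (1.08 to 2.64).

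**Figure D2:**
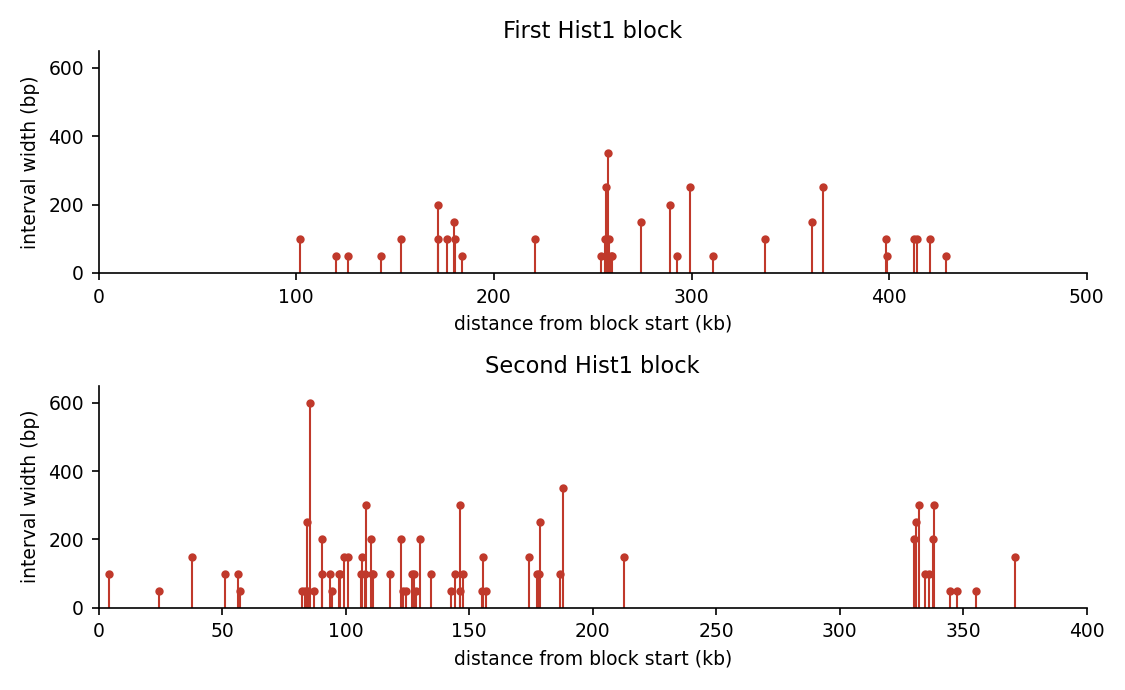
Width in bp (vertical axis) of each of the 33 intervals of the first block and the 62 of the second against distance in kb from the block start (horizontal axis), with 1 line and point per interval. The intervals of the second block crowd in 1 dense part, with smaller groups on either side and an empty stretch of 117 kb before the last 11, while those of the first are spread out, and 1 interval of 600 bp exceeds all others.

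Some histone genes are copies so alike that short reads may not be assigned to 1 of them. In the first run, 8 of 23 promoters shared an exact run of at least 50 bases with another Hist1 promoter elsewhere in the cluster. H4c11 shared with H4c12, and H4c17 with H4c18. H2ac23 and H2bc23 each shared with H2ac24 and with H4bc24, the last an H2B gene despite its symbol. Promoter windows of neighbouring H2A and H2B genes can overlap, so the 8 are not 8 separate copies. In the second run, 0 of 27 promoters shared such a stretch. Only the 250 bases before the start were compared, so these counts do not describe copies among the transcribed sequences. The share among all promoters was not computed. How reads that match several places were treated is not stated in the sources used here, and the part of these copies in the lower count of the first block was not tested. The genes between the runs, among them 75 Vmn1r and 46 tRNA genes, were not searched for shared sequence.

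Against all other windows of their size on chromosome 13, the second block stood near the top and the first in the upper part. In place of random windows, every window was taken that started on a 50 kb step and touched neither block. The second block, with 62 intervals, was equalled or exceeded by 33 of 2295 windows of 400 kb (1.44%), which formed 6 separate stretches, where the median window held 5 intervals and the highest 102. The first block, with 33, was equalled or exceeded by 234 of 2289 windows of 500 kb (10.2%) in 19 separate stretches, with a median of 6 and a maximum of 117. Neighbouring windows overlap, so these shares are descriptions. With each cluster counted once the order of the blocks turned, with shares of 7.23% for the second and 3.28% for the first, whereas merging intervals less than 1000 bp apart gave 0.436% and 6.38%. Over the 19 autosomes the shares were higher, at 5.80% for the second block and 19.8% for the first, with the same medians of 5 and 6 intervals.

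**Figure D3:**
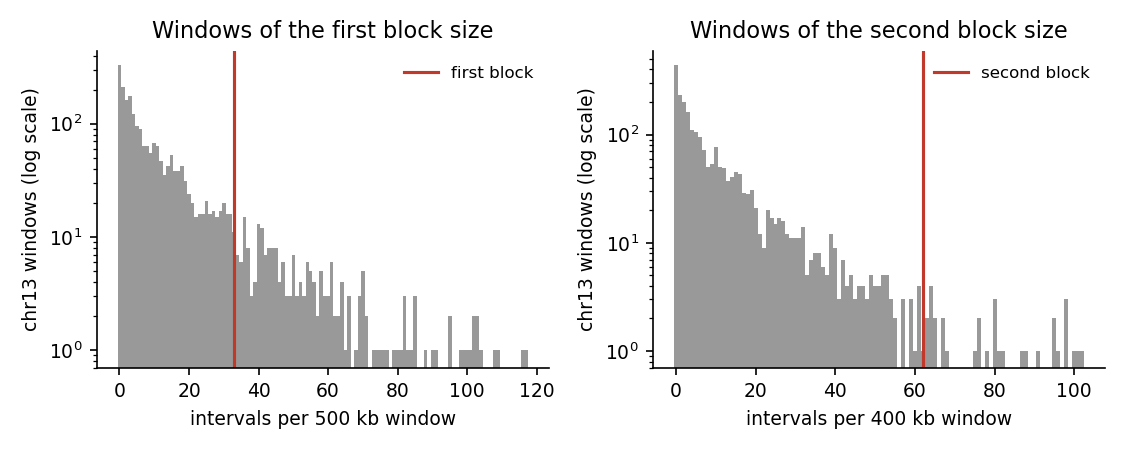
Number of windows of chromosome 13 (vertical axis, log scale) by the number of H3K56ac intervals they hold (horizontal axis), for windows of 500 kb on the left and of 400 kb on the right, with the observed block as a vertical line. The second block at 62 lies far out in the tail, and the first at 33 lies inside it.

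The stretch between the blocks, in contrast, lay below the mean density of the chromosome but near its typical window. Its density was 0.492 times that of the rest of the chromosome outside the blocks (exact 95% interval 0.281 to 0.800). Among 2241 windows of its length, 43.2% held 16 intervals or fewer, and the median was 21. Its longest empty stretch was 514 kb, from 22406501 to 22920900. Most of its 16 intervals were of the smallest size, 9 being 50 bp wide.

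Intervals in the blocks were narrow, as were those of the sequence around them. The median width was 100 bp in either block, as in the rest of chromosome 13 and in the whole list, with quartiles of 50 and 150 bp in the blocks against 50 and 200 bp in the rest of the chromosome. The mean was 115 bp in the first block and 135 bp in the second, against 122 bp in the outer flanks, 81.2 bp in the stretch between and 166 bp in the rest of the chromosome. Intervals of 500 bp or more were 1 of 95 (1.05%) in the blocks, 0 of 50 in the outer flanks, 0 of 16 in the stretch between, 6.0% in the rest of the chromosome and 6.98% in the whole list, and 0 members reached 1000 bp. All 33 windows of 400 kb with at least 62 intervals had more bases per interval than the second block, from 169 to 362 against 135. By covered bases, 3.75% of windows equalled or exceeded the second block and 16.0% the first.

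Of the 5 widest members of each block, with ties taken by lower start, 8 of 10 lay in groups of 6 or more. This was close to the share of all members, 67 of 95 (70.5%). The widest of all, 600 bp from 23585501 to 23586100, was the only one of at least 500 bp and lay in the cluster of 38. It was followed in the second block by 1 of 350 bp from 23688001 to 23688350, in the cluster of 6. Of 4 intervals of 300 bp, 2 lay in the cluster of 38, from 23608151 to 23608450 and from 23646401 to 23646700, and 2 in the cluster of 10, the first of them from 23832051 to 23832350. In the first block the widest was 350 bp, from 21957801 to 21958150, in the cluster of 7, which also held 1 of the 3 intervals of 250 bp (21956801 to 21957050). The other two of 250 bp, from 21999351 to 21999600 and from 22066401 to 22066650, lay in groups of 4 and 2. The fifth in order was 1 of 2 intervals of 200 bp, from 21871501 to 21871700, in the cluster of 6.

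**Figure D4:**
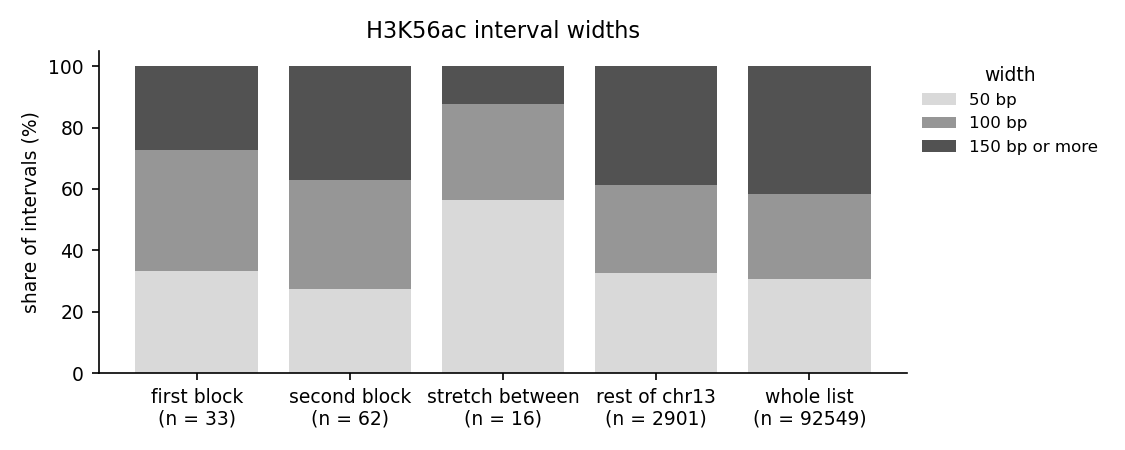
Share of intervals in percent (vertical axis) that are 50 bp, 100 bp or at least 150 bp wide, in the first block, the second block, the stretch between, the rest of chromosome 13 and the whole list (horizontal axis, with the number of intervals). Intervals of at least 150 bp make up 27.3% in the first block, 37.1% in the second and 12.5% in the stretch between, against 38.9% in the rest of the chromosome.

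Gaps were shorter in the denser block, although the uncertainty of the medians overlapped. The median gap between neighbours was 1550 bp in the second block (quartiles 750 and 5150 bp, 61 gaps) and 6275 bp in the first (975 and 15225 bp, 32 gaps). Over both blocks together the median was 2100 bp (750 and 7700 bp, 93 gaps). In the stretch between it was 22800 bp (1200 and 48850 bp, 15 gaps), and in the outer flanks 4725 bp (562.5 and 27962.5 bp, 48 gaps). In the rest of chromosome 13 the median was 2925 bp (550 and 23788 bp). In the whole list it was 1550 bp (450 and 11500 bp), the same as in the second block. The distribution-free 95% interval of the median was 900 to 2600 bp in the second block and 2100 to 14250 bp in the first. Gaps over 10 kb were 13.1% of those in the second block, 40.6% in the first and 35.8% in the rest of the chromosome. Very short gaps were not more common than elsewhere: 16.1% of gaps in both blocks were under 500 bp, against 22.9% in the rest of the chromosome and 26.7% in the whole list. In the second block 61.3% of intervals had a neighbour less than 1 kb away, close to the 61.6% of the whole list. In the first block 36.4% did, and in the rest of the chromosome 55.9%. Of the 21 members of at least 200 bp, 16 (76.2%) had such a neighbour, and of the 28 members of 50 bp, 12 (42.9%) did, close to the 78.3% and 38.2% of these widths in the rest of the chromosome.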

How the data were processed

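H3K56ac ChIP-seq intervals of 1 E14Tg2a library were analysed. The deposited list gives chromosome, start and end in base pairs. Bowtie and build mm9 are named per the submitters' processing notes; the sources used here give no aligner version, interval caller, threshold or use of the input. Starts were read as 1-based, since 0 starts and 0 ends then lay off the 50 bp grid. Block limits came from a set rule, and members and lists were chosen with earlier results of these data known. Counts, covered bases, gaps and windows were computed with Python 3.11.15, numpy 2.4.6, pandas 2.3.3 and scipy 1.17.1, and the code was tested on simulated data. Count intervals are exact Poisson, and ratios carry exact conditional binomial intervals (95%). Named by rule were the 5 widest intervals of each block, all of at least 500 bp, the cluster with most bases and the longest empty stretch; others named were chosen after their values were seen. The promoter elements, the shared runs of 50 bases, the ratio of the blocks and the removal of the largest cluster were also chosen after the intervals were seen.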

Additional observations from a re-analysis of the deposited data

How the results depend on the processing

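Of 69 alternative values, 40 stayed within the 95% interval of the reported value or, for the number of members, within 1.5 times of it. Of the others, 28 moved and 1 changed direction. For shares of windows the interval treated overlapping windows as independent, and for covered bases it was scaled from that of the count ratio. The split into 40 and 28 is therefore a rough description. The excess of the blocks over each of the 3 comparison stretches stayed above 1 in all 22 alternatives, but some of these could not have fallen. Taking members by midpoint repeated the reported values, since 0 members crossed a block limit. Measuring blocks from first to last interval cut only empty ends, which raises the excess. With clusters counted once the excess was 3.03 over the stretch between, 2.33 over the flanks and 2.76 over the rest of the chromosome. Also with clusters counted once, the ratio of the second block to the first, 2.35, turned to 0.938 (95% interval 0.349 to 2.42), and the shares of windows were 3.28% for the first block and 7.23% for the second. Without the largest cluster, a setting chosen after seeing the data, the excess was 2.76 over the flanks and 2.76 over the rest, and the ratio of the blocks 1.12. With intervals wider than the median only, 32 members remained, with a median width of 200 bp, a median gap of 8425 bp, an excess over the stretch between of 23.1 in number and 29.9 in bases, and shares of 17.7% and 2.75%. Merging under 500 bp gave shares of 8.65% and 0.654%. Merging under 1000 bp gave 63 intervals, a median gap of 6000 bp and shares of 6.38% and 0.436%. With blocks measured from first to last interval, the excess over the rest was 5.48 and the share for the first block 5.17%. By covered bases the shares were 16.0% and 3.75%, and over all 19 autosomes, also chosen later, 19.8% and 5.80%. Without empty windows the share for the first block was 11.9%. For the widths, merging and clusters, the alternative itself removes intervals; other causes were not tested. No paired analysis was possible because there is 1 ChIP library. Depth is unknown, so weak sites cannot be told from sites without H3K56ac.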
